A study of Cucumis sativus and Manihot esculenta and Brachypodium distachyon with 34 samples.

Results

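The genes described here are the CHG-methylated genes (CHG genes) of *Brachypodium distachyon*, a small temperate grass used as a model for cereals. They are the genes marked as CHG genes in the class list of the study, which sorted genes by methylated sites in the coding sequence of leaf DNA. A CHG gene carries methylation in the CHG context (C, then any base but G, then G) above a common background rate and none above background in the CHH context, with or without CG methylation. The part of the list used here held 1999 genes, of which 169 were CHG genes, 1256 were unmethylated (UM) and 566 had CG methylation only (gene body methylated, gbM). The other 8 were methylated in CHH above background, with or without CG or CHG methylation (CHH genes). All 1999, and so all 169 CHG genes, matched an entry of the leaf RNA-seq table, which lists 31694 genes. Both the methylome and the RNA came from leaves of the accession Bd21, with no treatment named, and there was 1 RNA library and 1 methylome. The library therefore has no replicate error, no p-value is given, and differences between gene classes are described by counts, medians and ranges, since genes are not replicates. The class came from DNA, so expression played no part in choosing the members. The identifiers are not paired with gene names or products in the files, so members are given by identifier only, and the leaf label was not checked against marker genes.

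Methylation at CHG sites in plants is kept up by chromomethylases, chiefly CMT3, which bind histone H3 methylated at lysine 9. The lysine mark is itself placed by enzymes of the SUVH family, which carry a domain that binds methylated cytosine. This coupling of DNA and histone methylation is best known from transposons and other silent heterochromatin. CG methylation alone inside a gene body is, by contrast, typical of genes that are expressed in most tissues.

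Most CHG genes had no measured leaf expression. Of the 169, 121 were listed at 0 (71.6%), against 329 of 1256 UM genes (26.2%) and 63 of 566 gbM genes (11.1%). The background share at 0 was 25.9% over all genes with a class and 28.5% over the whole table. Of the 8 CHH genes, 5 were listed at 0 and the highest had 0.924 FPKM. FPKM is a fragment count scaled by transcript length and by library size, so levels can be set side by side between genes. An exact 0 may stand for a failed estimate as well as for no fragments, and the files do not tell these apart. A further 19 CHG genes lay above 0 and below 1 FPKM, and 29 reached 1 FPKM or more (17.2%), against 683 UM genes (54.4%) and 458 gbM genes (80.9%). The background share at 1 FPKM or more was 58.5% over all genes with a class and 51.8% over the whole table.

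The median level of CHG genes was 0 FPKM, against 1.67 FPKM in UM genes and 7.01 FPKM in gbM genes. Their upper quartile was 0.0777 FPKM, against 9.59 FPKM in UM genes and 20.4 FPKM in gbM genes. On the log2(FPKM + 1) scale, the median of CHG genes minus that of UM genes was -1.42. Among genes above 0 only, the median was 1.98 FPKM over 48 CHG genes, 4.32 FPKM over UM genes and 8.43 FPKM over gbM genes. The order of the means was different, at 34.7 FPKM in CHG genes, 22.5 FPKM in UM genes and 42.5 FPKM in gbM genes. The 3 highest CHG genes held 91.6% of the summed FPKM of the class, and without them the mean of CHG genes was 2.96 FPKM.

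**Figure D1:**
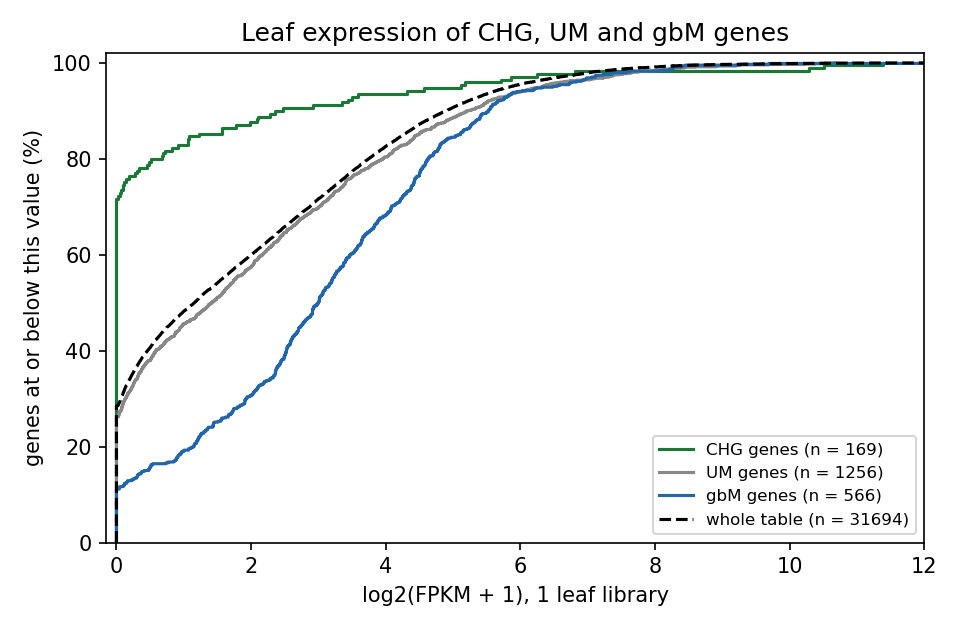
Percent of genes at or below each level in 1 leaf library, with log2(FPKM + 1) on the x axis, for 169 CHG genes (green), 1256 UM genes (grey), 566 gbM genes (blue) and the whole table of 31694 genes (dashed). The few genes with levels beyond the right edge are not drawn, and the jump at the left edge is the share listed at 0, which is 71.6% for CHG genes, 26.2% for UM genes and 11.1% for gbM genes.

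The 29 expressed exceptions ran from 1.08 to 2666 FPKM. The highest was Bradi1g05750 with 2666 FPKM, which ranked 26 among the 31694 genes of the table. Bradi1g12130 had 1459 FPKM and rank 44, and Bradi1g05790 had 1254 FPKM and rank 55. A wide gap followed, with Bradi1g05798 at 111.01 FPKM and Bradi1g02270 at 74.97 FPKM. Bradi0015s00100, the only CHG gene on a scaffold outside the chromosomes, had 57.0 FPKM. Bradi1g10930 (51.5 FPKM), Bradi1g07560 (35.3 FPKM) and Bradi1g13170 (33.6 FPKM) completed the 9 of 169 CHG genes that were among the highest 10% of the table. Bradi1g06030 had 22.8 FPKM, Bradi1g12875 had 18.9 FPKM, Bradi1g05758 had 10.97 FPKM and Bradi1g05707 had 10.4 FPKM, so 13 of 169 CHG genes reached 10 FPKM. The last of them, Bradi1g05707, ranked 7178 among the 31694 genes. The rest of the 20 highest were Bradi1g14093 (9.85 FPKM), Bradi1g05757 (9.23 FPKM), Bradi1g05802 (6.58 FPKM), Bradi1g05778 (4.54 FPKM), Bradi1g05772 (4.13 FPKM), Bradi1g14430 (3.86 FPKM) and Bradi1g15126 (3.29 FPKM). Around the limit of 1 FPKM the levels ran on without a break. Just above it were Bradi1g15130 (1.11 FPKM), Bradi1g08094 (1.10 FPKM) and Bradi1g05721 (1.08 FPKM), and just below it Bradi1g07692 (0.891 FPKM), Bradi1g05781 (0.776 FPKM) and Bradi1g05870 (0.647 FPKM).

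The 3 highest members each lay between genes of far lower level. Bradi1g12130, at 1459 FPKM, lay between the gbM genes Bradi1g12117 (7.82 FPKM) and Bradi1g12140 (19.7 FPKM), and its nearest CHG gene was 11 genes away. Bradi1g05750, at 2666 FPKM, lay between the UM genes Bradi1g05749 (5.06 FPKM) and Bradi1g05752 (15.4 FPKM), 4 genes from the nearest CHG gene. Bradi1g05790, at 1254 FPKM, had neighbours with no class, one listed at 0 and the other at 0.0111 FPKM. It too was 4 genes from the nearest CHG gene. Bradi1g12875 was the most isolated of the expressed members, with 22 genes to the nearest CHG gene, and lay between Bradi1g12870 (UM, 11.5 FPKM) and Bradi1g12880 (gbM, 79.0 FPKM). The 28 expressed members on chromosome 1 had 56 flanking positions, of which 33 were UM genes, 12 were gbM genes and 7 were CHG genes. Among all 1999 genes with a class, 1256 were UM, 566 gbM and 169 CHG genes. At 38 of the 56 positions the gene had 1 FPKM or more, and at 11 it was listed at 0. The background over all genes with a class was 58.5% at 1 FPKM or more and 25.9% at 0. It is not like for like, because some positions held another expressed member and some genes were counted more than once. Bradi1g05757 and Bradi1g05758 flanked each other, as did Bradi1g15126 and Bradi1g15130, and Bradi1g05777 lay between Bradi1g05776 and Bradi1g05778.

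Of the members used here, 168 lie in the first part of chromosome 1 and 1 lies on a scaffold. Locus numbers in this genome increase along the chromosome, so their order was used in place of coordinates, which the files do not give. Apart from 12 genes on scaffolds, the part of the class list used runs from Bradi1g00100 to Bradi1g17043. This range holds 1995 of the 9196 chromosome 1 genes in the expression table, and 8 of the 1995 have no class. The rest of the chromosome was not covered. CHG genes numbered 168 in the range. They were spread over the whole of it, with a median of 7 genes from one CHG gene to the next and quartiles of 2 and 16 genes. The longest interval without one held 93 genes, between Bradi1g03196 and Bradi1g03971, and the next held 67 genes, between Bradi1g06030 and Bradi1g06636. The most isolated member, Bradi1g02730 (0.213 FPKM), was 31 genes from the nearest other CHG gene, followed by Bradi1g00765 at 28 genes, which was listed at 0. No CHG gene lay farther than 50 genes from another.

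In blocks of 100 consecutive genes, the number of CHG genes went from 3 to 16. The highest counts were in block 7 (Bradi1g05150 to Bradi1g05772) with 16 and in block 14 (Bradi1g10875 to Bradi1g11760) with 14. The lowest were in blocks 4 and 5 (Bradi1g02540 to Bradi1g04245), with 3 each. Blocks with like counts of CHG genes differed in how many were listed at 0. All 12 CHG genes of block 1 and all 12 of block 13 (Bradi1g09970 to Bradi1g10870) were listed at 0, while in block 8 (Bradi1g05773 to Bradi1g06420) 3 of 13 were. Blocks 7 and 8 together gave 14 of the 28 expressed members on chromosome 1, 7 in each. The share of other genes at 0 overlapped widely between blocks rich and poor in CHG genes. In the 8 blocks with 10 or more CHG genes, the share of other genes listed at 0 had a median of 22.9% (12.8% to 31.8%), against 21.1% (16.3% to 27.1%) in the 11 full blocks with fewer.

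**Figure D2:**
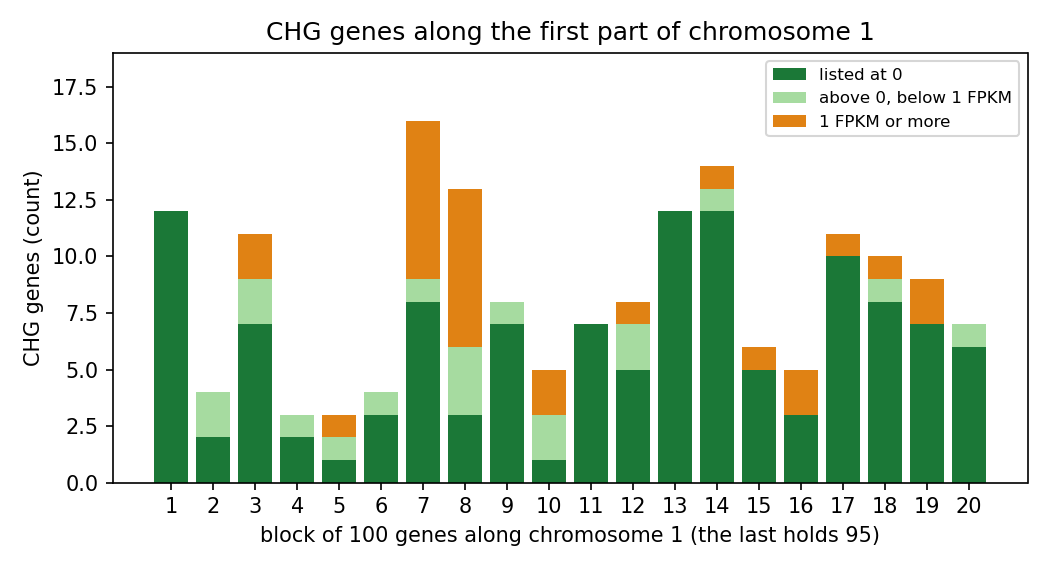
Number of CHG genes in each block of 100 consecutive genes from the start of chromosome 1 (x axis, block number, the last with 95 genes), split into genes listed at 0 (dark green), genes above 0 and below 1 FPKM (light green) and genes of 1 FPKM or more (orange). Blocks 7 and 8 hold 7 expressed CHG genes each, and no other block holds more than 2.

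CHG genes had a CHG neighbour in a larger share of cases than UM and gbM genes did. A CHG gene was a direct neighbour of 41 of the 168 CHG genes (24.4%), of 184 of 1248 UM genes (14.7%) and of 77 of 563 gbM genes (13.7%). The background over all 1995 genes was 15.5%, and the share in the 8 CHH genes, 3 of 8 (37.5%), was above that of CHG genes. The gap between CHG and UM genes lay mostly in genes whose locus number ends in 0, a feature described below. Of these, 15 CHG genes lay beside a CHG gene and 29 did not, against 100 and 726 UM genes. Among genes with other locus numbers, the shares of CHG and UM genes lay close together. Within 3 genes on either side, the shares were 56.5% of CHG genes, 36.2% of UM genes, 35.5% of gbM genes and 5 of 8 CHH genes (62.5%). Long runs were rare, however. Of the CHG genes, 127 stood with no CHG gene beside them, 36 formed 18 pairs, and 5 formed a single run. That run was the first 5 genes of the chromosome, Bradi1g00100, Bradi1g00200, Bradi1g00205, Bradi1g00210 and Bradi1g00213, all listed at 0. Genes around the run were also low. Of the first 30 genes, 8 were CHG genes and all 8 were listed at 0, as were 13 of the 22 others, and the highest level among the 30 was 5.12 FPKM.

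Both genes of a pair were listed at 0 in 10 of the 18 pairs, 1 of them was in 5 pairs, and neither was in 3 pairs. The pairs with expression in both genes were Bradi1g05757 and Bradi1g05758 (9.23 and 10.97 FPKM), Bradi1g15126 and Bradi1g15130 (3.29 and 1.11 FPKM), and Bradi1g05721 and Bradi1g05728 (1.08 and 0.101 FPKM). CHG genes with a CHG neighbour were listed at 0 in 73.2% of cases (30 of 41), against 71.7% (91 of 127) of those without one. The shares lay farther apart among members whose locus number ends in 0, with 73.3% (11 of 15) beside a CHG gene and 48.3% (14 of 29) elsewhere. Of these, 1 of the 15 and 9 of the 29 reached 1 FPKM. Among members with other locus numbers the order was the reverse, with the smaller share at 0 beside a CHG gene. Without the stretch of dense locus numbers described below, the shares over all members were 76.9% (30 of 39) and 77.7% (87 of 112).

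UM genes beside a CHG gene were listed at 0 in a larger share of cases than UM genes farther away. Of the 184 UM genes next to a CHG gene, 37.5% were listed at 0, against 24.2% of the 1064 others, and their median level was 0.705 FPKM, against 1.97 FPKM. The share at 0 was 29.1% at a distance of 2 genes, 27.3% at 3 to 5 genes, 22.1% at 6 to 10 genes, 21.1% at 11 to 20 genes and 19.4% beyond 20 genes. The shares in gbM genes lay close together, with 10.4% listed at 0 among 77 next to a CHG gene and 11.1% among the 486 others. Medians in gbM genes were 7.58 FPKM next to a CHG gene and 6.95 FPKM elsewhere. UM genes with a locus number ending in 0, a feature described next, were listed at 0 in 29.0% of 100 cases beside a CHG gene and in 19.1% of 726 cases farther away.

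**Figure D3:**
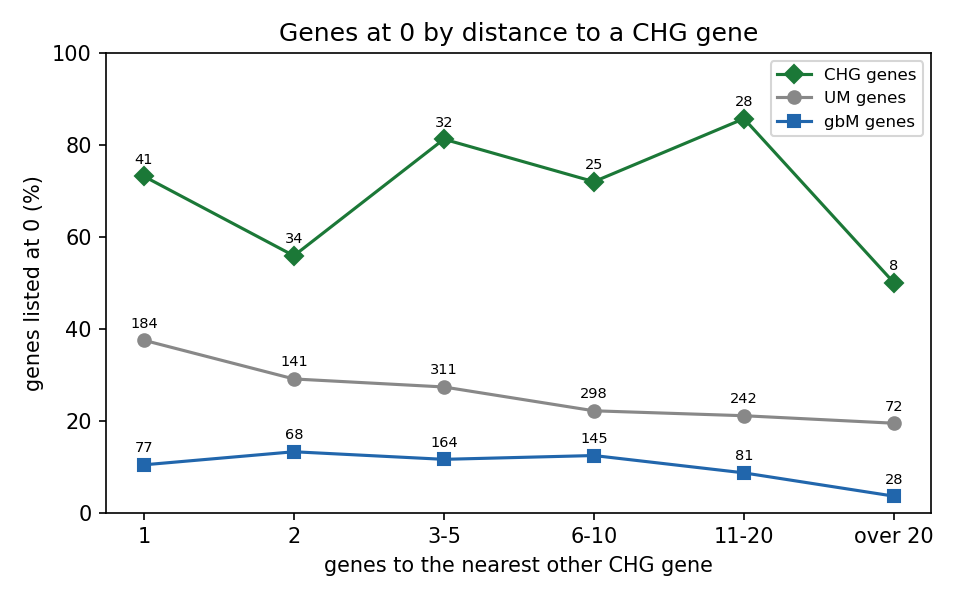
Percent of genes listed at 0 (y axis) by the number of genes to the nearest other CHG gene (x axis), for CHG genes (green), UM genes (grey) and gbM genes (blue), with the number of genes printed at each point. UM genes go from 37.5% beside a CHG gene to 19.4% beyond 20 genes, gbM genes stay between 3.57% and 13.2%, and the CHG point beyond 20 genes rests on 8 genes.

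Most CHG genes had a kind of locus number that was in the minority among other genes. Most numbers in this genome end in 0, in steps of 10, and the others lie between these steps. Of the 169 CHG genes, 124 (73.4%) had a number between the steps, against 423 of 1256 UM genes (33.7%) and 121 of 566 gbM genes (21.4%). The background was 33.7% over all genes with a class and 38.7% over the whole table. Counted the other way, 18.4% of the 674 genes numbered between the steps were CHG genes, against 3.40% of the 1325 genes with a number ending in 0. How the gene models behind the kinds of number differ was not analysed here, and the part of this in the low levels of CHG genes was not tested beyond the split that follows.

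In each class, genes numbered between the steps had the larger share at 0. CHG genes numbered between the steps were listed at 0 in 77.4% of cases and those with a number ending in 0 in 55.6%. The same shares were 37.6% and 20.4% in UM genes and 20.7% and 8.54% in gbM genes. Within either kind of number, CHG genes thus had the highest share at 0. Of the 45 CHG genes with a number ending in 0, 11 (24.4%) reached 1 FPKM, against 18 of 124 (14.5%) between the steps. Of the 9 CHG genes among the highest 10% of the table, 8 had a number ending in 0. The exception was Bradi1g05798. Numbers ending in 0 made up 1325 of all 1999 genes with a class, and their share among the highest 10% of the table was not counted. In the other classes, too, the highest 10% of genes began at a higher level among numbers ending in 0 than between the steps. These levels were 45.9 against 15.2 FPKM in UM genes and 47.2 against 23.2 FPKM in gbM genes. The table gives 1 transcript for each gene, and a transcript other than the first was listed for 16 CHG genes (9.47%), 164 UM genes (13.1%) and 146 gbM genes (25.8%).

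**Figure D4:**
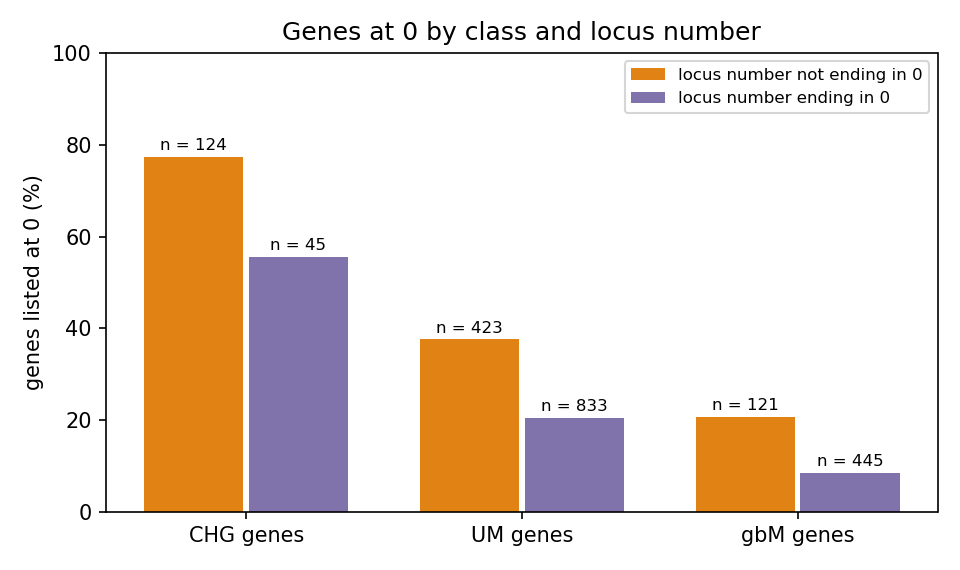
Percent of genes listed at 0 (y axis, from 0) in CHG, UM and gbM genes, split into genes whose locus number does not end in 0 (orange) and genes whose number ends in 0 (purple), with the number of genes above each bar. The orange bar is the higher one in each class, and both CHG bars (77.4% and 55.6%) stand above all others.

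In a stretch of chromosome 1 the CHG genes had higher levels. It was singled out after the levels were seen, and bounded by the locus numbers alone, as the longest run of genes in the whole table whose numbers differ by at most 3 from one gene to the next. It ran from Bradi1g05735 to Bradi1g05804 and held 57 genes, where the next longest run of this kind, from Bradi1g39190 to Bradi1g39220, held 25. CHG genes made up 17 of its 51 genes with a class (33.3%), against 7.80% of the genes with a class elsewhere, and 32 were UM genes and 2 gbM genes. From Bradi1g05760 to Bradi1g05764 and from Bradi1g05773 to Bradi1g05782 UM and CHG genes alternated gene by gene, and the only CHG pair in it was Bradi1g05757 and Bradi1g05758.

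Within this stretch the share of CHG genes at 0 was close to that of UM genes. Of the 17 CHG genes, 4 (23.5%) were listed at 0 and 11 reached 1 FPKM, against 9 at 0 (28.1%) and 18 at 1 FPKM or more among the 32 UM genes. Their median was 3.26 FPKM, against 1.74 FPKM in the UM genes. The CHG genes at 0 were Bradi1g05740, Bradi1g05761, Bradi1g05763 and Bradi1g05774, and the others included 3 of the 4 highest members, Bradi1g05750, Bradi1g05790 and Bradi1g05798. Those above 0 and no higher than the CHG median of the stretch were Bradi1g05768 (3.26 FPKM), Bradi1g05776 (1.97 FPKM), Bradi1g05794 (1.35 FPKM), Bradi1g05781 (0.776 FPKM) and Bradi1g05796 (0.369 FPKM). CHG genes held 92.2% of the summed FPKM of the stretch, and the stretch held 69.4% of the summed FPKM of all CHG genes. Both shares rest mostly on Bradi1g05750 (2666 FPKM) and Bradi1g05790 (1254 FPKM). Its highest gene of another class was the UM gene Bradi1g05775 with 137 FPKM. Among the 152 CHG genes outside the stretch, 117 (77.0%) were listed at 0 and 18 reached 1 FPKM, against 26.1% at 0 in 1224 UM genes outside it.

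**Figure D5:**
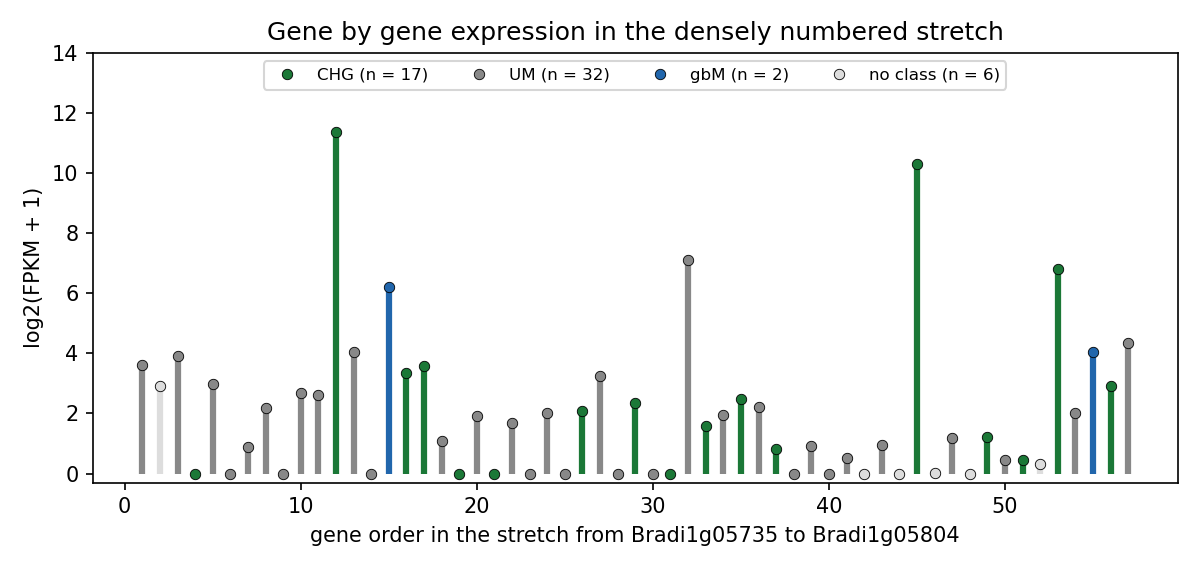
Level of each gene, as log2(FPKM + 1) on the y axis, in order along the stretch from Bradi1g05735 to Bradi1g05804 (x axis, gene 1 to gene 57), coloured by class (17 CHG, 32 UM, 2 gbM and 6 with no class). The tallest lines are the CHG genes Bradi1g05750 (2666 FPKM) and Bradi1g05790 (1254 FPKM), and 4 of the 17 CHG genes and 9 of the 32 UM genes lie at 0.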

How the data were processed

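Leaf RNA of *B. distachyon* Bd21 was sequenced as 1 TruSeq stranded library. Per the labels and the methods of the study, reads were trimmed with Trimmomatic 0.32, aligned with TopHat2 2.0.13 and quantified with Cufflinks 2.2.1 with a reference annotation (Bd21 genome version 2.1), and the authors deposited 1 FPKM value per gene. The table holds no fragment counts, so the depth behind a value is unknown. Gene classes came from the study's list, of which 1999 genes were used. They were matched after the transcript suffix was dropped.

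Shares, medians, gene order, neighbours and blocks were computed in pandas 2.3.3 on NumPy 2.4.6 (Python 3.11.15), and plots were drawn in Matplotlib 3.10.9, with a pseudocount of 1 and a limit of 1 FPKM for an expressed gene. The code was tested on simulated data first. Genes named are the 20 CHG genes of highest FPKM, members of runs of 3 or more, the scaffold gene, the 3 genes on either side of 1 FPKM and the 2 most isolated members. Other genes were named after their values were seen. The rule also covered product names and tissue markers, which were not used here. Members and lists were chosen with earlier results of these data known.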

Additional observations from a re-analysis of the deposited data

How the results depend on the processing

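With 1 library there is no replicate to leave out. No paired analysis was possible because the library has no partner in another group. Of 22 alternatives over 5 results, 12 stayed within the limits of change set for them and 10 moved beyond these. Only the difference of medians has a sign, and it stayed negative in every alternative. The CHG median was 0 FPKM, so a positive sign was possible only over genes above 0 and for the difference of means. Mean FPKM without logs, at 34.7 in CHG genes and 22.5 in UM genes, was not among the alternatives. The other results are shares or counts of CHG genes alone, which have no direction to change. The share of CHG genes at 0 was 55.6% among locus numbers ending in 0. The difference of medians from UM genes, on the log2 scale, was -4.15 with a pseudocount of 0.1, -0.84 over genes above 0, -1.32 as a difference of means, -2.04 among locus numbers ending in 0, -3.001 against gbM genes and -1.16 against the whole table. A limit of 5 FPKM left 16 expressed members (9.47%), against 34.5% of UM genes and 58.3% of gbM genes at that limit. Leaving out the stretch of dense locus numbers, chosen after seeing the data, left 18 at 1 FPKM or more. Counted within 3 genes in place of direct neighbours, 56.5% of CHG genes had another nearby. The causes were not tested. The difference among genes above 0 was -1.36 without the stretch. The order of genes with a class only, also chosen after seeing the data, gave 25.6% with a CHG neighbour.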
